A study of Mus musculus with 24 samples.

Results

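The genes described here are 10 liver genes for secreted carrier proteins, namely the albumin family (Alb, Afp, Afm and Gc) and 6 further plasma carriers (Ttr, Trf, Rbp4, Ambp, Ahsg and Fetub), taken from the 22350 protein-coding genes of the autosomes and X. They were chosen by name and not by their signal, though with earlier results of these data known. A gene's window was its body plus 10 kb on each side in the mm9 build, and every peak that overlapped a window by at least 1 bp was taken. H3K27ac, an acetyl mark on histone H3 at active promoters and enhancers, was measured by ChIP-seq in liver of mice aged 8 weeks from 4 groups: C57BL/6J (B6) males, B6 females, CAST/EiJ (CAST) males and CAST females. Each group had 5 livers, 20 in all, and 1 input library. The authors combined the 5 livers of a group before calling peaks, so each group is 1 peak list, there is no replicate spread, and no difference between lists could be tested. Values below are given in the order B6 male, B6 female, CAST male and CAST female unless stated. B6 is a classical inbred laboratory strain and CAST a wild-derived inbred strain.

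Albumin is the main protein of plasma and carries fatty acids, hormones and metal ions. Alb, Afp, Afm and Gc arose by duplication of an ancestral gene and lie on the same chromosome, with Alb, Afp and Afm in a row. Alpha-fetoprotein is the fetal member of the family, and its gene is shut down in the hepatocyte after birth while Alb stays on. Among the other members are carriers of thyroxine, retinol and iron, and hepatocytes are the main source of most of them.

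The sequences below show what lies at the ends of that contrast: the promoters of the neighbours Alb and Afp, of Gc and of Fetub (250 bases before to 50 bases after the annotated start, in the direction of transcription), and 300 bases around the summit of 4 regions to which the results return. They were read from the mm9 reference, which is a B6 genome, so CAST bases may differ. Capitals mark matches on either strand to GTTAAT (the core of an HNF1 half-site), TTGCNNAA (C/EBP), TGTTTNC (FOXA), CAAAGTCCA (HNF4), TATAAA (the TATA box) and CCAAT (NF-Y), and matches may overlap one another.
Alb promoter: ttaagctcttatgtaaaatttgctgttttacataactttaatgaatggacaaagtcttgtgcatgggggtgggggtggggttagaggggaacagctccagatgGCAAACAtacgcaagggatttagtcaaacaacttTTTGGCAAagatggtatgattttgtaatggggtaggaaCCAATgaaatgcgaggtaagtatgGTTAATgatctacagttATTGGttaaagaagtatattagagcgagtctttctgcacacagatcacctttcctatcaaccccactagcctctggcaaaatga
Afp promoter: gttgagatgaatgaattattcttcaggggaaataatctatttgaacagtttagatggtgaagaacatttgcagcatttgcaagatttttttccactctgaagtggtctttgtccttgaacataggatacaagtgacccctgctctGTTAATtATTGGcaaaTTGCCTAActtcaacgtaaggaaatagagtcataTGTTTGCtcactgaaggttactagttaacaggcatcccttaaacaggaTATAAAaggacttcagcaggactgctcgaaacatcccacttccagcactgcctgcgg
Gc promoter: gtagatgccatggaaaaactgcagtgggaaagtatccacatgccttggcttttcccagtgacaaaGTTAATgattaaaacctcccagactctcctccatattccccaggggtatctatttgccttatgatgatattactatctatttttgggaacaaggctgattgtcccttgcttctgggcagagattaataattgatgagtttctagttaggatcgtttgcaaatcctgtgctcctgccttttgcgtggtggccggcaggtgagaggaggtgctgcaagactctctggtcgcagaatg
Fetub promoter: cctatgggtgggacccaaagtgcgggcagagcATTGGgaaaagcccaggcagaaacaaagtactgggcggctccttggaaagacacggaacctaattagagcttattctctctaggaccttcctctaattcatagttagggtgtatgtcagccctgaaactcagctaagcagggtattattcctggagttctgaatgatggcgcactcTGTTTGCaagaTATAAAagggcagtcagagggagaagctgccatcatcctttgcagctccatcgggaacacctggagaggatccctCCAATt
Afp upstream region: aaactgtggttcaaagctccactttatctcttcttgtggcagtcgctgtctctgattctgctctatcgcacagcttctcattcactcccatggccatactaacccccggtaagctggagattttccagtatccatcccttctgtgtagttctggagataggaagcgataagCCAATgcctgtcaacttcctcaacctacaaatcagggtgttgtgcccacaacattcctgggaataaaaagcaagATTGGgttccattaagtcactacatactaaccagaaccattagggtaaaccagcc
Fetub start region: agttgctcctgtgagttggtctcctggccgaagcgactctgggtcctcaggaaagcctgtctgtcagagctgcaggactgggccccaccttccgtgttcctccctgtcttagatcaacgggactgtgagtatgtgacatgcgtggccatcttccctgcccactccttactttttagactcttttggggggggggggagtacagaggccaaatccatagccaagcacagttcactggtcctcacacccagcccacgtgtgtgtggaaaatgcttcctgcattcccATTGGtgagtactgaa
Fetub internal region: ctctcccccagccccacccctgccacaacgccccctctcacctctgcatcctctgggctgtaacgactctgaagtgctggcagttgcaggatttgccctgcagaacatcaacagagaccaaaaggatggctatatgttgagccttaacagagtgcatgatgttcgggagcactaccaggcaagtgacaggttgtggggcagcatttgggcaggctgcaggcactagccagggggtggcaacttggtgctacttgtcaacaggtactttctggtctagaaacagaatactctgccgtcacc
Gc upstream region: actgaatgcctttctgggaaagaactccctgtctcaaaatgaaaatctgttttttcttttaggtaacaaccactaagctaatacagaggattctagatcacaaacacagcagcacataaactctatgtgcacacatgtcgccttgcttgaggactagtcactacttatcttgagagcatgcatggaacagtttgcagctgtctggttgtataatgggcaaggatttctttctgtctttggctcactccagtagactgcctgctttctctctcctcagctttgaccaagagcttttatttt

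The Alb promoter, on the plus strand at chr5:90889665-90889964, held 1 match each for HNF1, C/EBP and FOXA and 2 for NF-Y. The Afp promoter, at chr5:90919490-90919789 on the same strand, held 1 match each for HNF1, C/EBP, FOXA, the TATA box and NF-Y. Thus every one of the 3 liver factor motifs with a match before the active gene also had a match before the fetal one. The Gc promoter (chr5:89886741-89887040, minus strand) held 1 HNF1 match, and the Fetub promoter (chr16:22918205-22918504, plus strand) held 1 FOXA match, 1 TATA box and 2 NF-Y matches. The HNF1 letters were found in 4 of the 10 members' promoters, all 4 of them of the albumin family, and in 6.23% of all 22345 promoters of the same length. C/EBP matches were found in 3 members (10.3% of all promoters), FOXA matches in 5 (18.8%), TATA boxes in 3 (13.4%) and NF-Y matches in 8 (37.9%). The HNF4 letters were in no member's promoter and in 0.456% of all promoters. Among 300-base windows on the summits, FOXA letters were in 32 of the 104 member regions (30.8%) and in 24.5% of the 119346 regions read. HNF1 letters were in 8 of the member regions (7.69%, against 8.13% of all) and C/EBP letters in 9 (8.65%, against 11.5%). A match is a run of letters and not a mapped binding site.

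The 4 lists held 79862, 82181, 90228 and 84645 peaks. The strain entry of the sample records goes against the sample titles for the B6 females and the CAST males, and the titles were followed here, as the names of the peak lists do. Both lists titled B6 skip peak numbers (599 and 579 numbers) and both lists titled CAST skip none, and no number was skipped in any member window of any list. The read depth is not given in the peak lists. Hepatocyte markers (Hnf4a, Apoa1, Cps1, Pck1 and Tat) had peaks in 5 of 5 windows in every list, with a median of 21.7%, 19.5%, 21.7% and 21.1% of the window covered. Kupffer cell markers had peaks in 0, 2, 1 and 1 of 4 windows, cholangiocyte markers in 1 of 3 in every list, stellate cell markers in 1, 2, 1 and 2 of 3, and sinusoidal endothelial markers in 3 of 3. Genes absent from liver (Neurod1, Myod1, Ins2 and Pax6) had peaks in 1, 1, 0 and 0 of 4 windows.

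All 10 members carried H3K27ac in all 4 lists. Most genes had a peak too, namely 16211, 16204, 16516 and 16348 of the 22350 protein-coding genes. Over the 7 stretches left when overlapping windows were joined, 376368 bp in all, there were 71, 69, 92 and 86 peaks, and they covered 14.5%, 14%, 15.7% and 14.2% of the bases. Per gene, the covered share of a member's window ran from 12.5% to 19.1%, 9.69% to 21.9%, 13.6% to 18.9% and 11.5% to 19.2%. The median protein-coding gene had 4.82%, 4.68%, 5.10% and 4.66% of its window covered, so that the lowest member of each list stood above the median gene of that list. The 12 other plasma carriers (Hpx, Hp, Cp, Orm1, Orm2, Serpina6, Serpina7, Apom, Apoh, Hrg, Kng1 and Kng2) had medians of 14.6%, 13.4%, 15.9% and 13.9%, close to the members' medians of 14.4%, 14.4%, 16% and 14.7%.

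**Figure D1:**
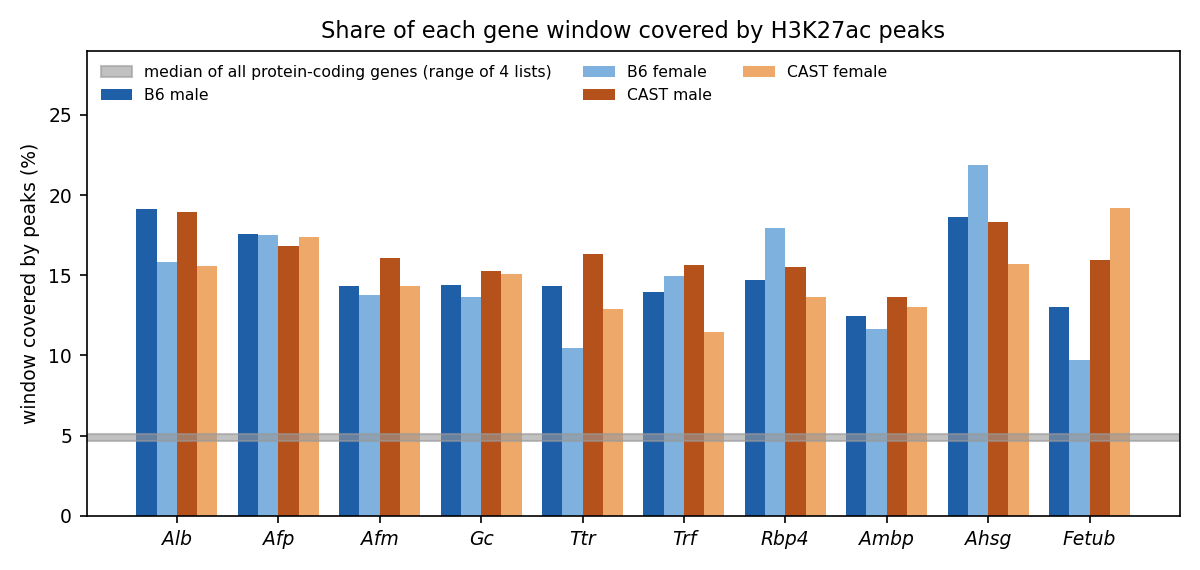
Share of each member's window (gene body plus 10 kb on each side) covered by peaks, in percent, with 1 bar per list and no error bar since each list pools 5 livers. The grey band is the range over the 4 lists of the median protein-coding gene. Every bar stands above the band, the lowest being Fetub in B6 females at 9.69%.

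The fetal gene Afp was covered about as much as its active neighbour Alb. Alb (chr5:90889915-90905629, plus strand) had 8, 7, 11 and 7 peaks over 6837, 5661, 6767 and 5560 bp, which is 19.1%, 15.9%, 18.9% and 15.6% of its window. Afp (chr5:90919740-90937933, plus strand) had 7, 8, 11 and 10 peaks over 6708, 6676, 6431 and 6637 bp, which is 17.6%, 17.5%, 16.8% and 17.4% of its window. The covered share of Alb over that of Afp was 1.09, 0.907, 1.13 and 0.896, above 1 in both male lists and below 1 in both female lists. Afp was covered more than 93.4%, 94.2%, 91.8% and 94.6% of protein-coding genes, and Alb more than 95.5%, 91.7%, 94.8% and 91.9%.

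A single region counts for both genes. It lies in the 14110 bp between the end of Alb and the start of Afp, from 7129 to 4308 bp upstream of the Afp start (chr5:90912611-90915432), a stretch known to hold enhancers of Afp. It was called in all 4 lists over 2818, 2634, 2283 and 2548 bp and was the widest region of either gene. It was 1 peak in B6 males, B6 females and CAST females and 3 separate peaks of 463, 1345 and 475 bp in CAST males. The highest fold enrichment at a summit in this shared region, the ratio of signal to local background given by the authors' peak caller, was 5.15, 3.64, 4.22 and 3.55, higher in the male list than in the female list of each strain. When the windows were trimmed halfway between neighbouring genes, so that nearly all of this region went to Afp, Alb had 12.5%, 9.24%, 13.8% and 9.19% covered and Afp 17.9%, 17.4%, 16.2% and 16.8%. Beyond the Alb window, in a stretch looked at after these values were seen, a region from 12998 to 10835 bp upstream of Alb was called in all lists over 2124, 2137, 2157 and 2115 bp with pileups of 308, 293, 301 and 232. With 25 kb on each side of the genes, which takes in this region and others upstream of Alb, the ratio of Alb to Afp was above 1 in all 4 lists (1.49, 1.47, 1.28 and 1.41). Among the others, a region from 21325 to 19059 bp upstream of Alb was called in all lists over 2201, 1730, 1258 and 1162 bp. Within the gene bodies alone, 10.1%, 6.69%, 16.5% and 6.06% of Alb and 12%, 12.7%, 9.97% and 7.01% of Afp were covered. The Afp window also takes in regions between Afp and Afm and the upstream part of the Afm start region, and in B6 females, CAST males and CAST females its highest pileup lay there.

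**Figure D2:**
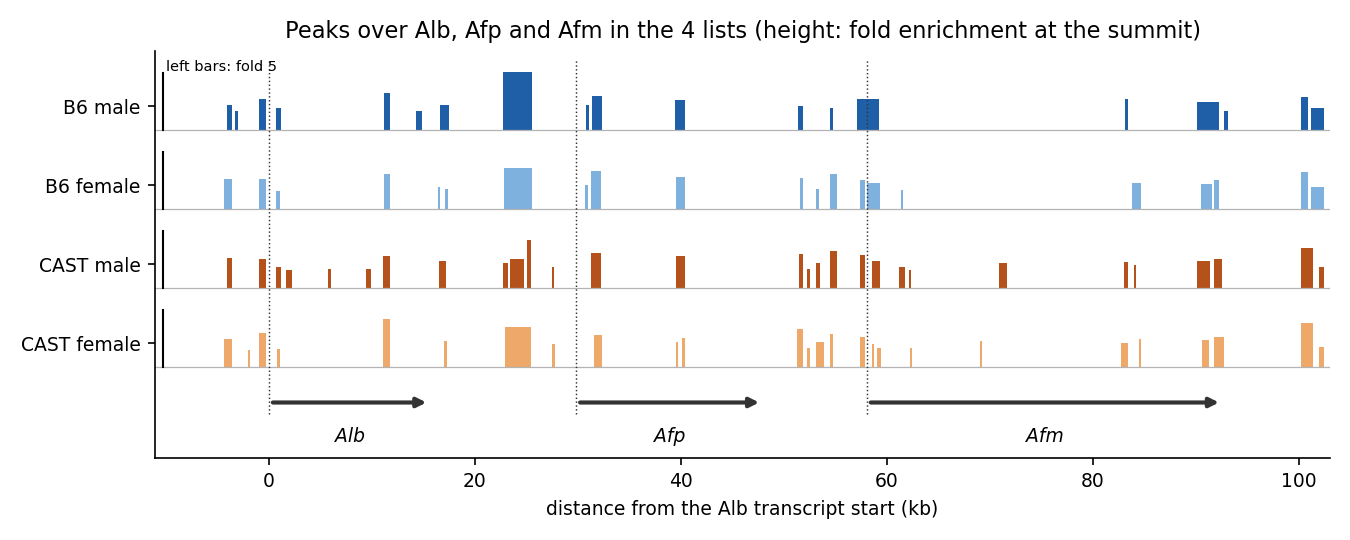
Peaks of the 4 lists over Alb, Afp and Afm, plotted by their distance from the Alb start in kb, with the height of a block giving the fold enrichment at the summit (the bar at the left of each track is a fold of 5). Arrows mark the genes and dotted lines their starts. The region of 2822 bp between Alb and Afp, shared by both windows, is 1 wide block in B6 males, B6 females and CAST females and 3 blocks in CAST males.

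The genes differed in how much signal lay under their body peaks. Fold enrichment and the p-value at a summit together give the local background and the pileup there (the estimated number of fragments over the base after the caller's scaling), and both were solved for every peak. The highest summit pileup within the body of Alb was 171, 125, 152 and 166, and within the body of Afp it was 98, 89, 99 and 79. Alb was therefore higher than Afp in all 4 lists on body pileup. Over the whole windows the highest pileup was 236, 209, 209 and 251 for Alb and 192, 204, 247 and 188 for Afp. The Afp window was thus higher in CAST males, but at a peak between Afp and Afm. In B6 males the value of the Afp window came from the region shared with Alb. In whole tissue, fewer cells with the mark and less of it per cell cannot be told apart. On fold enrichment within the bodies Alb was not higher in every list, with maxima of 3.27, 3.09, 2.79 and 4.25 for Alb against 3.03, 3.37, 3.08 and 2.80 for Afp. The median background under the body peaks was 47.9, 59.7, 72.2 and 59.8 for Alb and 30.7, 24.9, 28.5 and 24.5 for Afp.

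No list had a peak over the start of Alb or of Afp, but their nearest peaks lay at different distances. Alb was flanked on both sides. The region from 973 to 273 bp upstream was called in all 4 lists over 689, 665, 672 and 674 bp with summit pileups of 236, 209, 209 and 251, and the region from 667 to 1175 bp downstream was called over 427, 460, 506 and 289 bp. The nearest peak to the Afp start lay downstream at 988, 839, 1507 and 1736 bp, and the nearest upstream peak at 4312, 4308, 2101 and 2007 bp. Its nearest peak was farther away than that of any other member in B6 males, CAST males and CAST females, and in B6 females that of Fetub was farther, at 858 bp.

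Near its start Afp also differed between the strains. A region from 839 to 1230 bp downstream, over an exon, was called in B6 males (243 bp, fold 2.18) and B6 females (360 bp, fold 2.09) and in neither CAST list. It was the only one of 48 member regions called in both B6 lists that was in neither CAST list (2.08%, beside 8.4% of all such regions). A region from 2355 to 2007 bp upstream was called in CAST males (222 bp, fold 1.82) and CAST females (349 bp, fold 2.05) and in neither B6 list. Both regions ranked low by score. The former passed 33.3% of all peaks in B6 males and 20.5% in B6 females, and the latter 29.8% in CAST females and 23.4% in CAST males. The next region, from 1431 to 2516 bp downstream, was called in all 4 lists over 965, 1036, 944 and 781 bp with folds of 3.03, 3.37, 3.08 and 2.80. A further one in an intron, from 9629 to 10595 bp, was called in all 4 lists over 967, 911, 870 and 495 bp.

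Other genes of the fetal liver did not share the coverage of Afp. Of H19, Igf2, Gpc3, Dlk1, Igf2bp1, Igf2bp3 and Lin28b, 2 of 7 had any peak in each list, and the median covered share was 0.0% in every list. Igf2bp3, which encodes an RNA-binding protein of growing tissues, had 7.22%, 7.58%, 6.70% and 4.90% of its window covered, the highest of the 7 in all lists. The fetal growth factor gene Igf2 and its neighbour H19 had no peak in any list. Afp, at 16.8% to 17.6%, stood above all 7 in each list.

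Afamin, a vitamin E-binding plasma protein, is encoded by Afm (chr5:90947958-90982569, plus strand), the gene after Afp. It had 8, 11, 15 and 15 peaks over 7820, 7531, 8764 and 7811 bp. Its start region, from 956 bp upstream to 1440 bp downstream, was called in all 4 lists over 2194, 1725, 1223 and 1141 bp with summit pileups of 183, 165, 219 and 166. In B6 males a single peak spanned the start, whereas in the other 3 lists the peaks stopped short on both sides of it. The end of the gene carried a further region in all lists (2181, 1531, 2036 and 1665 bp), and every region in the gene body between the pair was missing from at least 1 list. One of these, intronic and from 24694 to 25383 bp, was called in B6 males (327 bp), CAST males (320 bp) and CAST females (678 bp) and not in B6 females. The highest fold of the window, at 2.94, 3.25, 3.57 and 3.89, belonged to a region at the start of a neighbouring gene, 5830473C10Rik. Between Afp and Afm, 10024 bp apart, the regions from 6749 to 6177 and from 3547 to 2912 bp before the Afm start were called in all lists, that from 4957 to 4116 bp in all but B6 males, and that from 5829 to 5460 bp in both CAST lists alone.

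Gc encodes the vitamin D-binding protein, which carries vitamin D metabolites and scavenges actin. Gc (chr5:89846549-89886790, minus strand) had 16, 16, 17 and 17 peaks over 8666, 8207, 9203 and 9081 bp, the most peaks of any member in each list. The acetylated stretch began 71 to 78 bp inside the gene and reached 904 bp, with widths of 789, 834, 801 and 803 bp and pileups of 269, 255, 289 and 204. A neighbouring intronic region, from 1264 to 2608 bp, was the widest of the gene at 1257, 1209, 1264 and 1147 bp and was called in all lists. The best fold of the gene was at a narrow region about 10 kb upstream (from 10138 to 9517 bp, chr5:89896307-89896928) with 3.64, 2.88, 4.34 and 4.66, higher in both CAST lists than in both B6 lists. Its widths were 597, 512, 583 and 593 bp. The region from 1792 to 577 bp upstream was called in B6 males (1040 bp), B6 females (227 bp) and CAST females (577 bp) and not in CAST males. The next one, from 2767 to 2037 bp upstream, was called in all but B6 males (584, 570 and 731 bp). A region over an exon, from 31689 to 32421 bp downstream, was called in B6 males (247 bp), CAST males (374 bp) and CAST females (733 bp) and not in B6 females.

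Transferrin, the iron carrier of plasma, is encoded by Trf (chr9:103106331-103132774, minus strand), which had 5, 8, 7 and 6 peaks over 6467, 6939, 7275 and 5335 bp. Its start region ran from 601 bp upstream to 2427 bp downstream and held 2502, 2931, 2565 and 2127 bp of peaks with folds of 1.82, 1.76, 2.21 and 2.16. In B6 females 1 peak spanned the start. In the other lists no peak covered the start, and the nearest edge lay 128, 67 and 235 bp from it in B6 males, CAST males and CAST females. A second wide region from 4713 to 1934 bp upstream held 2643, 1972, 2431 and 1442 bp with summit pileups of 315, 305, 312 and 263. The highest fold of any member window, 8.09, 8.28, 8.47 and 8.59, was found 28303 to 29342 bp downstream, but that region lies at the start of the neighbouring gene Srprb. The region from 9702 to 8711 bp upstream was called in B6 females (571 bp), CAST males (992 bp) and CAST females (281 bp). The annotation holds another record named Trf that starts 137 bp inside this one and reaches into Srprb, and the record described here is the one of the lower gene number.

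Retinol travels in plasma on retinol-binding protein, the product of Rbp4 (chr19:38191110-38199811, minus strand). Rbp4 had 6, 4, 8 and 6 peaks over 4216, 5144, 4448 and 3916 bp. Its start region, from 11 to 2561 bp downstream, had the highest summit pileup of any member in every list, at 371, 438, 445 and 391. It held 1554, 2484, 2005 and 2155 bp of peaks with folds of 3.01, 3.5, 3.12 and 3.32. The region was 1 unbroken peak in B6 females and was split in the other 3 lists. The region from 1832 to 1265 bp upstream was called in all but B6 males (568, 489 and 423 bp). A B6 male peak of 278 bp in an intron, 4136 to 4413 bp from the start, had a fold of 1.06 and a solved background of 106566. It was kept in the counts of peaks and bases and left out of medians and maxima of fold, pileup and background.

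Ambp encodes the precursor of the lipocalin alpha-1-microglobulin and the protease inhibitor bikunin. Ambp (chr4:62804309-62815833, minus strand) had 6, 3, 7 and 6 peaks over 3927, 3671, 4299 and 4105 bp. The start region, from 104 bp upstream to 2489 bp downstream, held 1811, 2221, 1668 and 1557 bp. Upstream of it came 2 more regions called in all lists, one from 2958 to 2109 bp (509, 532, 814 and 834 bp) and one from 4654 to 3283 bp (1318, 918, 1276 and 1329 bp). The former was wider in both CAST lists than in both B6 lists. These 3 regions held most of the covered bases, and the window beyond them carried only regions called in 1 or 2 lists.

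The fetuins Ahsg and Fetub lie next to each other on chromosome 16. Ahsg (chr16:22892115-22899511, plus strand), whose product fetuin-A keeps calcium phosphate in solution, had 10, 10, 10 and 9 peaks over 5112, 5993, 5026 and 4309 bp. In B6 females 21.9% of its window was covered, the highest value of any member in any list. The median fold of its peaks was 1.62, 1.5, 1.71 and 1.61, the lowest of the members in B6 males, B6 females, CAST males and CAST females alike. The median background under them was 144, 128, 145 and 116, the highest of the members in all 4 lists. The start region (114 bp upstream to 718 bp downstream) held 437, 392, 772 and 638 bp, less in both B6 lists than in both CAST lists.

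Of the member regions that some list lacked, the one with the most covered bases lay at Ahsg. This region, from 5753 to 3917 bp upstream, was called in B6 males (1066 bp), B6 females (1837 bp) and CAST females (291 bp), and not in CAST males. The intronic region from 1220 to 1917 bp and the one over an exon from 2525 to 3583 bp were called in all but B6 males (500, 698 and 547 bp, and 634, 774 and 604 bp). The region from 753 to 295 bp upstream was called in B6 females (357 bp) and CAST males (317 bp). No summit in these 4 regions passed a fold of 1.68. An upstream region at the window's edge, from 11162 to 9541 bp, was called in all lists over 1088, 1408, 1153 and 1498 bp and had the highest pileup of the gene in each (302, 283, 343 and 265).

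**Figure D3:**
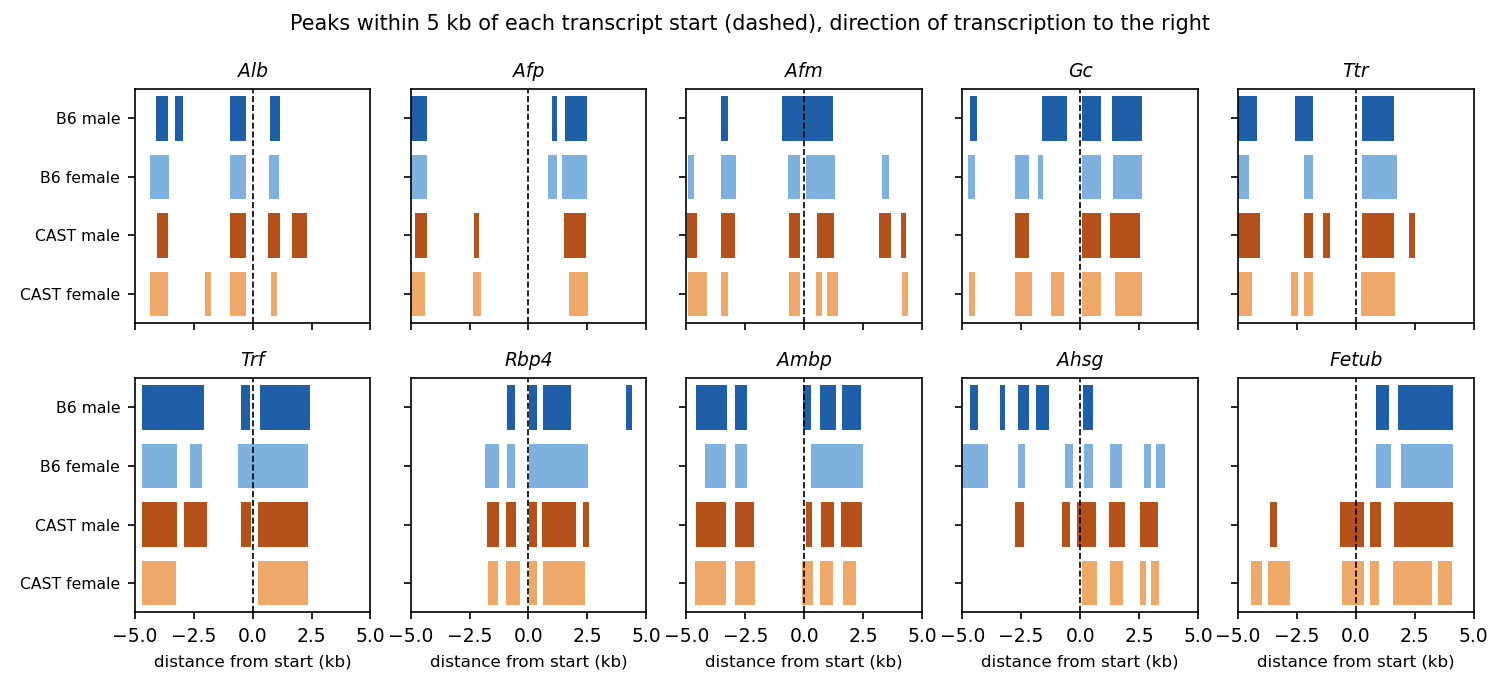
Peaks within 5 kb of the start of each member in the 4 lists, plotted by distance from the start in kb with transcription to the right. Blocks are peaks and the dashed line is the annotated start. Blocks sit on one or both sides of the line in nearly every panel, whereas Afp shows a stretch without blocks in any list from 2007 bp upstream to 839 bp downstream, and Fetub has blocks upstream in the CAST lists alone.

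Transthyretin, which carries thyroxine and the retinol-binding protein, is encoded by Ttr (chr18:20823751-20832825, plus strand). Ttr had 4, 3, 8 and 6 peaks over 4171, 3041, 4738 and 3755 bp. The region after its start, from 231 to 1757 bp, was called in all lists over 1340, 1495, 1394 and 1434 bp with folds of 2.12, 2.1, 2.41 and 2.40. Upstream regions from 2734 to 1801 bp (788, 385, 393 and 637 bp) and from 6008 to 4054 bp (1794, 1161, 1190 and 582 bp) were also called in every list. The latter was widest in B6 males. A weak region 15204 to 16357 bp downstream was called in B6 males (249 bp), CAST males (762 bp) and CAST females (827 bp) and not in B6 females.

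By covered bases in windows with 10 kb on each side, Fetub was the member that differed most between the strains. Its product, fetuin-B, inhibits the egg protease ovastacin and is needed for female fertility. Fetub (chr16:22918455-22939839, plus strand) had 6, 4, 7 and 10 peaks over 5391, 4010, 6589 and 7946 bp. CAST females had 1.98 times the covered bases of B6 females, and CAST males 1.22 times those of B6 males. With 25 kb on each side the ratio between the females was 1.33 for Fetub and 1.77 for Ambp, so which member differed most rests on the window. The region over the outermost start, from 671 bp upstream to 357 bp downstream (chr16:22917784-22918812), was called in CAST males (1013 bp, fold 2.02, pileup 184) and CAST females (935 bp, fold 2.47, pileup 194) and in neither B6 list. So was a region from 3721 to 2790 bp upstream (932 bp in CAST females and 299 bp in CAST males).

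Fetub has further annotated starts 1840 and 3363 bp inside the outermost one, and the region from 1590 to 4132 bp that spans both was called in all lists over 2336, 2223, 2507 and 2270 bp with pileups of 228, 228, 242 and 189. The region from 594 to 1467 bp was likewise called in all lists. A region over an exon further into the gene, from 10692 to 12653 bp, was called in all lists but with unlike signal. Its fold was 4.18, 2.28, 6.43 and 5.49 and its pileup 80.0, 44.0, 257 and 196, and its width 1514, 657, 1581 and 1962 bp. Both CAST lists were above both B6 lists on pileup, fold and width, and B6 females were lowest on all 3. The reads of each strain were mapped on a reference of that strain, so strain and reference cannot be told apart in these differences.

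**Figure D4:**
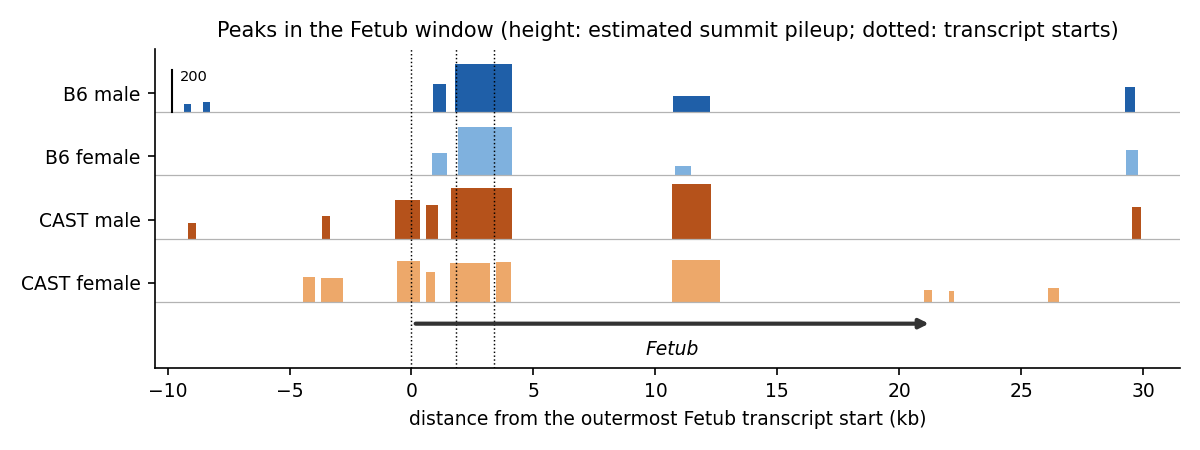
Peaks of the 4 lists in the Fetub window, plotted by distance from the outermost start in kb, with the height of a block giving the estimated summit pileup (the bar at the left is 200). Dotted lines mark annotated starts and the arrow the gene. Blocks over the outermost start appear in the CAST tracks alone, and the block near 11 kb is low in B6 females (44.0) and high in CAST males (257).

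The share of member regions called in all 4 lists was near that of all regions of the series, a likeness that was not tested. The members' windows held 104 regions of the 119348 in all (34 touching an exon, 27 in introns and 43 intergenic). Of these, 42 were called in all 4 lists (40.4%, against 40.4% of all regions and 42.1% of those in the windows of protein-coding genes). Another 32 were called in 1 list (30.8%, against 32.4%). The median width was 986 bp for those called in all 4 lists, with a median best score percentile of 74.2, and 332 bp and 17.5 for those called in 1. The corresponding values over all regions were 1360 bp and 75.9, and 295 bp and 14.3. Among the members as among all regions, those seen in 1 list were the narrower and lower ranked ones by these medians.

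Sex differences in region calls were near the background as well. Of 79 member regions called in B6, 17 were called in males only (21.5%, against 17.4% of all B6 regions) and 14 in females only (17.7%, against 17.5%). Of 91 called in CAST, 18 were called in males only (19.8%, against 21.5%) and 13 in females only (14.3%, against 14.1%). With only peaks of −log10 q of at least 5, 22.4% of the member regions called in CAST were called in 1 sex, against 30.3% of all. Across strains, 5 of the 60 member regions called in both CAST lists were in neither B6 list (8.33%, against 11.8%). These 5 lie at Fetub, at Afp and at Afm, with 1 counted for both Afp and Afm.

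By covered bases per gene in windows with 10 kb on each side, 1 of the 40 member comparisons passed 1.5 times. In B6, no member had 1.5 times more covered bases in males (7.26% of 16580 genes did) and none in females (6.1%). In CAST, no member had 1.5 times more in males (10.7% of 16760 genes) and none in females (3.66%). Between the males of the strains none was 1.5 times higher in CAST (12.4% of 16807 genes) and none higher in B6 (6.56%). Between the females 1, Fetub, was higher in CAST (11.8% of 16845 genes) and none in B6 (12.3%), and with 25 kb on each side that 1 was Ambp in place of Fetub. In the gene bodies alone, with no flank, 9 of the 40 passed. There Alb was higher in males than in females in both strains, and Ahsg was higher in females in B6, which makes 2 members in B6 (17.3% of 14491 genes passed in either direction) and 1 in CAST (18.4% of 14777). Between the males 3 members passed (22.5% of 14856 genes), Alb, Ttr and Ahsg, all higher in CAST, and between the females 3 (28% of 14870), with Afp and Ambp higher in B6 and Fetub higher in CAST. The ratio of males to females had a median of 1.05 over the members in B6 and 1.03 over all genes, and of 1.13 and 1.08 in CAST. The 12 other carriers passed 1.5 times in 2 of 48 comparisons, both of them Serpina7, the thyroxine-binding globulin gene.

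Starts were seldom under a peak. The outermost start was covered in 2 members in B6 males (Afm and Ambp), 1 in B6 females (Trf), 2 in CAST males (Ahsg and Fetub) and 2 in CAST females (Ambp and Fetub). Over all protein-coding genes 42.2%, 40.8%, 42.7% and 39.7% of starts were covered. Yet a peak lay within 1 kb of the start in 10, 10, 9 and 9 members, Afp being the exception in both CAST lists, against 55.1%, 55.3%, 57.3% and 56.6% of all genes. Among genes with at least the summit pileup of the lowest member in the list, 70.2%, 68.4%, 68.6% and 65.1% of starts were covered. The 12 other carriers had 2, 4, 2 and 2 starts covered, and the 5 hepatocyte markers 2, 0, 1 and 1. Afp, Gc, Ttr, Rbp4 and Alb had no covered outermost start in any list, and for the last 4 the nearest edge lay 71 to 78, 231 to 263, 11 to 27 and 273 to 300 bp away. Annotated starts further inside the gene were covered at 510 bp in Rbp4 and at 626 bp in Ambp in B6 females, and at 2002 bp in Trf in all 4 lists. In Fetub the start at 1840 bp was covered in all but B6 females and that at 3363 bp in all but CAST females.

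Fold enrichment at the members was low for their pileup. The members' peaks had a median fold of 2.04, 2.1, 2.19 and 2.23, below the medians of all peaks of each list (2.53, 2.5, 2.57 and 2.57), and 15 of 70, 20 of 69, 21 of 92 and 22 of 86 stood above the list's median. Their median pileup ran from 139 in CAST females to 167 in CAST males, above the lists' medians of 84.0, 84.0, 81.0 and 77.0, in every list. The highest pileup per gene differed less, with medians of 288, 265, 306.5 and 258 over the members and of 280, 275, 305 and 236 over all genes with a peak, and in B6 females the members' median was the lower. The median background under them was 74.2, 74.1, 76.9 and 63.1, against 29.4, 29.5, 28.0 and 26.6 for all peaks. A background above 2 times the list's most common value was found under 68.6%, 75.4%, 76.1% and 72.1% of member peaks and under 38.3%, 38.0%, 37.7% and 37.2% of all peaks. In windows of 10 kb around summits, the background moved with the covered bases across each list. Peaks in the least covered 10% had median backgrounds of 18.4, 18.7, 17.8 and 16.8 and those in the most covered 10% 85.0, 82.4, 88.1 and 74.6, with median folds of 2.18, 2.14, 2.24 and 2.24 and of 2.26, 2.28, 2.32 and 2.35. The peak caller takes the background from the input libraries, and its part in the members' low folds was not tested.

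**Figure D5:**
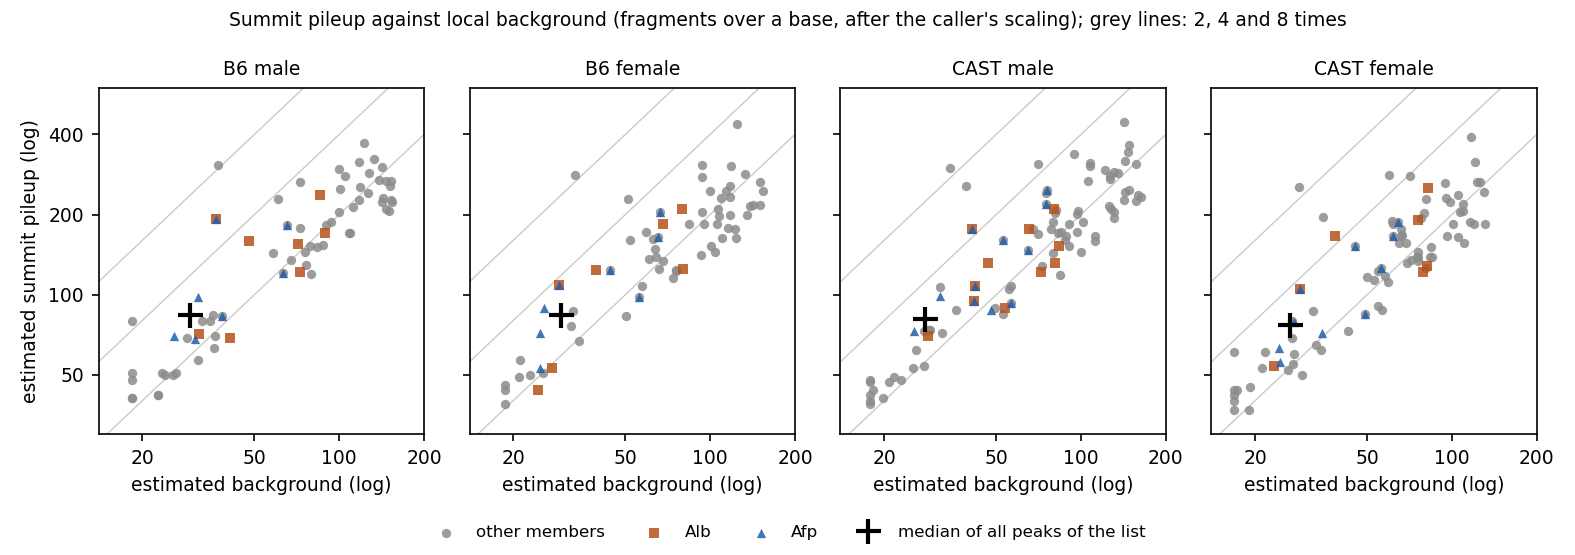
Estimated summit pileup against estimated local background of the members' peaks in each list, both on log axes in fragments over a base after the caller's scaling. Each point is 1 peak, orange squares are peaks of Alb, blue triangles of Afp (a triangle on a square is the shared region), grey points those of other members, and the cross is the median of all peaks of the list. Most member peaks lie right of and above the cross, at backgrounds up to 154, 153, 163 and 131, and below the line of 4 times.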

How the data were processed

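Per the study's methods and the submitters' processing notes, the authors aligned unique reads with Bowtie2 to mm9 (B6) or to a CAST genome whose coordinates were then returned to mm9, joined the 5 livers of a group, and called peaks with MACS2 against the group's input, removing blacklisted peaks and peaks made of PCR duplicates. The 4 deposited lists give for each peak a score (10 times the −log10 q-value), a fold (the ratio of pileup to background at the summit), and the −log10 p-value and −log10 q-value at the summit. Read depth is not given in them, and intervals that need it were not computed.

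Peaks of the 4 lists were joined into regions where they overlapped by 1 bp, and windows, starts, exons and introns were taken from GENCODE annotation of the same build (Python 3, pandas and numpy). The local background and pileup at a summit were solved from the fold and the p-value under the caller's Poisson model. On 4885 peaks simulated under that same model, 98.5% of backgrounds and 98.5% of pileups came within 5% of the truth. This checks the solving alone, and whether the deposited values follow the model was not tested. With 1 list per group, no test was made, and members' counts are set beside the same counts over all genes or regions. All 10 members were named, with the start and widest regions, and, of regions absent from some list, the 12 with the most covered bases and those within 1 kb of a start. The members, gene lists and motifs were chosen with earlier results of these data known. The alternatives tried were other flanks, equal list lengths, a −log10 q of at least 5, merging of near peaks, peaks with most of their bases inside the window, and the span of coding transcripts.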

Additional observations from a re-analysis of the deposited data

Results flagged for a closer look

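For 5 of the 10 members the covered bases of males over females lay on opposite sides of 1 in the 2 strains, as they did for 43.1% of the 15483 genes covered in all 4 lists. Each value is a ratio of 2 pooled lists, and the difference between strains was not tested. The ratio was 1.34 in B6 and 0.829 in CAST for Fetub, 0.932 and 1.36 for Trf, 0.820 and 1.14 for Rbp4, 0.853 and 1.17 for Ahsg, and 1.00 and 0.969 for Afp.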

How the results depend on the processing

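Of 88 values under another setting, 71 stayed within the limits set for them (1.5 times for counts and ratios, the 95% interval for shares), 11 moved beyond them and 6 ratios of Alb to Afp crossed 1. With no flank the number of regions was 54, the ratio of Alb to Afp was 0.849 in B6 males and 0.528 in B6 females, and 2 members passed 1.5 times between the B6 sexes (Alb and Ahsg), 1 between the CAST sexes (Alb), 3 between the males of the strains (Alb, Ttr and Ahsg) and 3 between the females (Afp, Ambp and Fetub). Of all genes, 17.3%, 18.4%, 22.5% and 28% passed in these 4 comparisons, so that 9 of the members' 40 is near the background. With −log10 q of at least 5, the share of the members' CAST regions called in 1 sex was 22.4% in place of 34.1% (30.3% of all CAST regions at that threshold), the ratio of Alb to Afp in B6 males was 0.998, and 1 member, Fetub, passed 1.5 times between the B6 sexes and 1, Fetub again, between the males of the strains, where 13.5% and 19.5% of all genes passed. With 25 kb on each side the ratio of Alb to Afp was 1.47 in B6 females and 1.41 in CAST females, and the 1 member past 1.5 times between the females was Ambp, higher in CAST, in place of Fetub (21.3% of all genes passed). In windows trimmed halfway between neighbours, a setting chosen after seeing the data, the ratio of Alb to Afp was 0.699, 0.531, 0.853 and 0.548, so its side of 1 rests on the window. The cause was not tested. No paired analysis was possible because the lists pool the livers, and for the same reason no replicate could be left out.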
